A study of Mus musculus with 22 samples.

Results

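In mouse collecting duct cells, 427 binding sites of the transcription factor C/EBP beta (gene Cebpb) lay at the ends of protein-coding genes and were listed after the vasopressin analog dDAVP but not after vehicle. They were selected on the measured peak calls: a peak of the C/EBP beta dDAVP list that overlapped no peak of the C/EBP beta vehicle list, with its centre at most 1000 bp from an end of a protein-coding RefSeq gene. They are 427 of the 2401 peaks of that dDAVP list, and of 3801 peaks in the 4 deposited lists. Of the 2401 peaks, 2192 (91.3%) were absent from the vehicle list, so absence is what most peaks of the list share and was part of the choice. The other dDAVP-only peaks, 1765 in number, lay farther from gene ends, and 49 peaks at gene ends were in both C/EBP beta lists.

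Chromatin immunoprecipitation and sequencing (ChIP-seq) was done in mpkCCD clone 11, a line of mouse cortical collecting duct cells that is a single clone, used at passages 6 to 12. All groups were confluent monolayers on permeable supports and had spent 24 h without serum or hormones, so the vehicle cells carry that deprivation too. They then received vehicle or 0.1 nM dDAVP, which acts on the V2 receptor, for 30 min. Antibodies to CREB1 gave 4 samples per treatment and antibodies to C/EBP beta gave 2 per treatment. The other 10 of the 22 samples were inputs without antibody, and each treatment had 1 input that served both antibodies. The labels name no genetic change in any group. The lists hold positions and no expression, so the labelled cell type could not be checked against marker genes.

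C/EBP beta is a basic leucine zipper protein that binds DNA as a dimer, each partner reading the letters TTGC or close relatives. With another C/EBP protein it reads TTGCGCAA and its variants. With ATF4, the activator made when amino acids are short or the endoplasmic reticulum is stressed, C/EBP proteins read a joined element such as TGATGCAA at amino acid genes. C/EBP beta is best known for acute phase, inflammatory and fat cell genes. In the collecting duct, the V2 receptor raises cyclic AMP and activates protein kinase A, which phosphorylates CREB1, and vasopressin raises transcription of Aqp2, the water channel of the apical membrane.

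The promoters below were picked to show the kinds of C/EBP-type element found at sites with high scores. Each is a stretch of the RefSeq promoter window (GRCm38.p6, the assembly of mm10) around the peak centre and upstream of the annotated start, written 5′ to 3′ on the strand of the gene. Capitals mark matches, on either strand, to a C/EBP site TTGCNNAA, to a C/EBP-ATF composite TGATGNAA, to TGACGNAA, a chimera of the cyclic AMP response element (CRE) and the C/EBP site, or to the CpG-holding core CGCAA. A match is a match of letters and is not by itself a bound site. Prmt3 (chr7:49778227-49778346, plus strand) and Ptgs2 (chr1:150099915-150100030, plus) hold the palindrome TTGCGCAA. Pcf11 (chr7:92670027-92670146, minus) and Qtrt2 (chr16:43889677-43889780, minus) hold other C/EBP sites. Pycr1 (chr11:120643781-120643900, minus) holds the composite. Taco1 (chr11:106065867-106065986, plus) and Bud31 (chr5:145140265-145140375, plus) hold the chimera. Atp6v1f (chr6:29467590-29467709, plus) holds the core CGCAA and none of the longer elements.
Prmt3: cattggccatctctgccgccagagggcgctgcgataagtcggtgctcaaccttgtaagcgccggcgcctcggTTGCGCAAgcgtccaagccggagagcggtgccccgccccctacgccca
Ptgs2: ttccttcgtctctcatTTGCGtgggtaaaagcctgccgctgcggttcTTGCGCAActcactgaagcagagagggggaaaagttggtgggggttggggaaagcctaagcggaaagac
Pcf11: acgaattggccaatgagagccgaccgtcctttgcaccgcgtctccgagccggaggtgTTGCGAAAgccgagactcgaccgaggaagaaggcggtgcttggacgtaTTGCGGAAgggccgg
Qtrt2: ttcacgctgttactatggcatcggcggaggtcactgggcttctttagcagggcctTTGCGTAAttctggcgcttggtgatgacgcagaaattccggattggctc
Pycr1: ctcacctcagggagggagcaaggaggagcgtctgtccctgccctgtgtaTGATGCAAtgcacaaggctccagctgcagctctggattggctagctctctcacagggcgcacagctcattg
Taco1: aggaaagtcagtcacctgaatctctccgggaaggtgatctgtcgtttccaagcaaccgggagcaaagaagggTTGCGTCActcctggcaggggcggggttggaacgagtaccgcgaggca
Bud31: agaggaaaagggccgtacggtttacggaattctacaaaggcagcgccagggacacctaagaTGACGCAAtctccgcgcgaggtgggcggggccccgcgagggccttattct
Atp6v1f: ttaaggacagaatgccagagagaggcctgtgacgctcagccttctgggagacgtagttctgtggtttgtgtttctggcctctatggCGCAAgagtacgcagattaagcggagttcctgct

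Each of these promoters belongs to a peak above the upper quartile of the group's scores (320.5), the score being the authors' own value per peak, deposited without a scale. They are not simply the highest: H2ac19 (847), H2ac18 (714) and Zzef1 (642) scored above Bud31 (497). Those promoters held the core CGCAA and none of the longer elements. Around the core, the H2ac19 and H2ac18 promoters share almost the same letters, so they are not separate examples. Prmt3, an arginine methyltransferase whose known substrate is a ribosomal protein, had a peak with a score of 1303. Its palindrome began 59 bases before the start and lay 15.5 bp from the peak centre. Ptgs2, the inducible cyclooxygenase of prostaglandin synthesis, had a score of 819, and its palindrome lay 10.0 bp from the peak centre. Pycr1, which makes proline in the last step of its synthesis, had a score of 1196, with the composite 7.5 bp from the centre. In these 3 promoters the element therefore lay close to the middle of the peak.

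The scores of the 427 sites ran from 37 to 1396, with a median of 191 (95% interval of the median over peaks 172 to 213) and quartiles of 113 and 320.5. Scores and the absence from the vehicle list come from the same contrast that chose the sites, so they describe the group and test nothing. The 1765 dDAVP-only peaks away from gene ends had a median score of 179 and quartiles of 113 and 295. The 49 gene-end peaks of both lists had a median score of 1215 and none under 340. Of the 427 sites, 99 (23.2%) reached 340 and 3 passed 1215. Widths showed the same order, with a median of 259 bp (range 90 to 523) for the 427 sites, 257 bp for dDAVP-only peaks elsewhere and 392 bp for gene-end peaks of both lists.

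**Figure D1:**
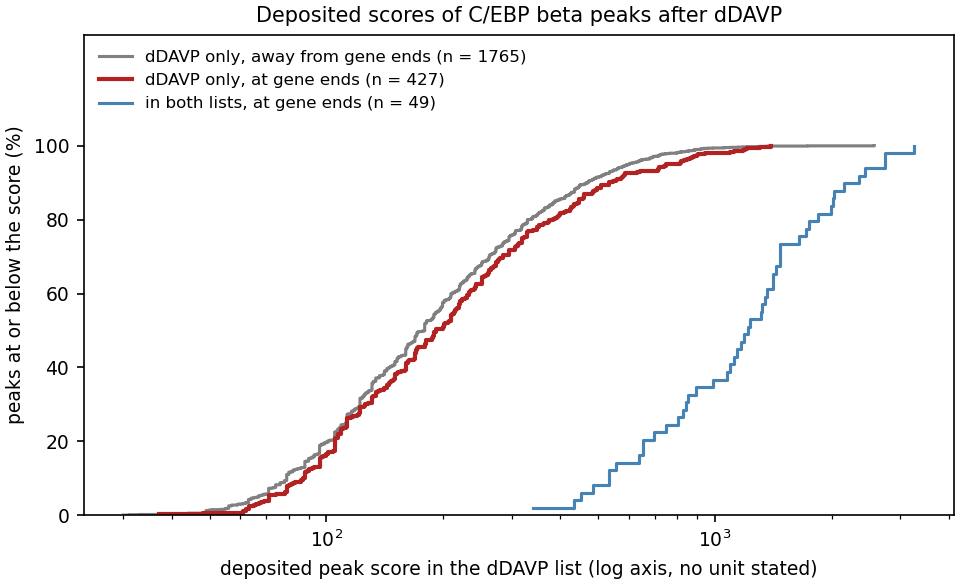
Share of C/EBP beta dDAVP peaks (vertical axis, %) at or below each deposited score (horizontal log axis, no stated unit) for the 427 dDAVP-only peaks at gene ends, the 1765 dDAVP-only peaks elsewhere and the 49 gene-end peaks of both lists. The first pair of curves runs close together with medians of 191 and 179, while the third lies to the right with a median of 1215.

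The highest score, 1396, was at Tomm6 (chr17:47687893-47688246), a small subunit of the translocase that imports proteins across the outer mitochondrial membrane. The centre lay 317 bp inside Tomm6, and ends of Prickle4 and Frs3 were also within reach. This was the 1 site of the 427 with ends of 3 genes. Atp6v1f (chr6:29467461-29467841), a subunit of the proton pump of endosomes and lysosomes, followed with 1303, as did Prmt3. Taco1 (chr11:106065747-106066108), which promotes mitochondrial synthesis of a cytochrome c oxidase subunit, had 1211, and Pycr1 (chr11:120643661-120644020) had 1196. Hmgxb3 had 1181, Pcf11, a factor of RNA 3′ end formation and transcription termination, had 1121, and Csnk1g2, a casein kinase, had 1096. Acadsb, a dehydrogenase of branched-chain acyl-CoA breakdown, had 1061 at a peak it shared with the start of the zinc finger gene Ikzf5. The nuclear pore gene Nup35 had 945 and Gtf2f1, a subunit of the general factor TFIIF, had 902. Qtrt2, a subunit of the enzyme that places queuine in tRNA, had 883, Fdxr, the ferredoxin reductase of mitochondrial electron transfer, had 872, and Tcp11l2 had 865.

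At the low end, the scores were 37 at M6pr, the mannose 6-phosphate receptor of lysosomal sorting, 43 at Dhrs7, 48 at Ptp4a1, and 61 at both Cacul1 and Psat1. Width did not simply follow score. The widest peak, 523 bp at Atf3, had a score of 434, and the next, 506 bp at Cyp51, the sterol demethylase of cholesterol synthesis, had 150. Peaks at Rbm4 (505 bp), Adm (457 bp) and Zkscan6 (456 bp) had scores of 217, 741 and 134. The narrowest, at Ccdc85b (90 bp), Vtcn1 (121 bp), Ash1l (129 bp), Abca8a (142 bp) and M6pr (144 bp), all scored under 100.

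The sites crowded at gene starts, on the upstream side. The median distance from the nearest gene end was 216.5 bp (quartiles 77.5 and 568), and 132 sites (30.9%) lay within 100 bp, 227 (53.2%) within 250 bp and 302 (70.7%) within 500 bp. Gene-end peaks of both lists lay nearer still, with a median of 100.5 bp (quartiles 48 and 256.5). Of those, 49.0% had the centre in a promoter window of the RefSeq table, beside 35.6% of the dDAVP-only sites. Strand was known for the nearest gene of 348 sites, and 320 of these (92.0%) had a start as the nearest end. For the other 79 sites the strand was not known. Of the 320, 191 (59.7%) were upstream of the start, with a median position 49.0 bp upstream (quartiles -228 and 199.5). The 28 sites at the other end of a gene showed no such crowding, with a median position of -91.8 bp, negative being before that end. The median score was 195.5 at starts and 185 at the other ends.

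**Figure D2:**
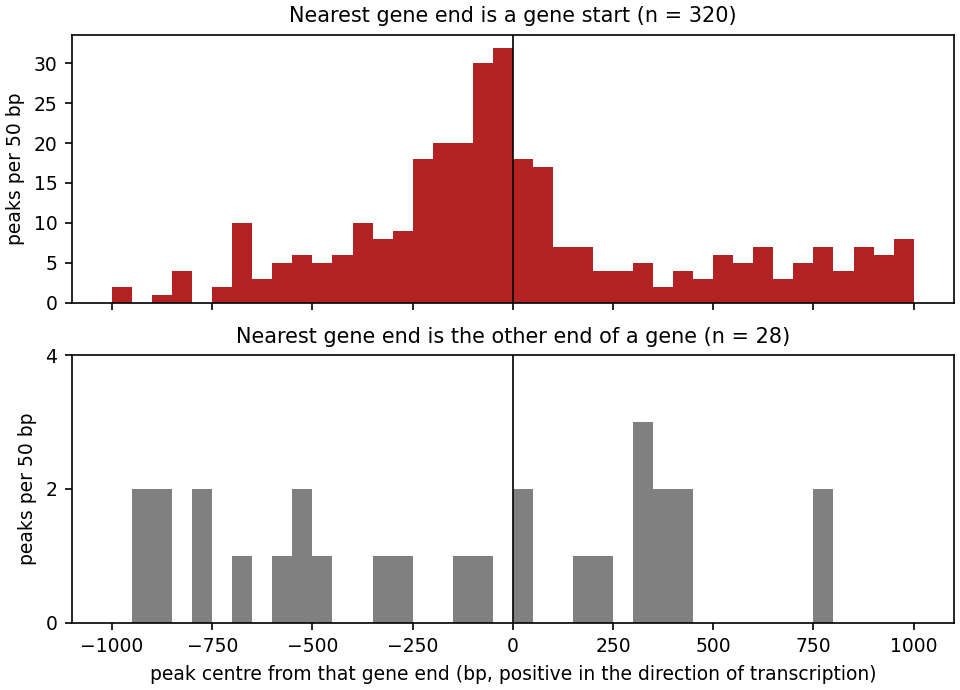
Number of C/EBP beta dDAVP-only peaks per 50 bp (vertical axes) by the position of the peak centre from the nearest gene end (horizontal axis, bp, positive in the direction of transcription), for 320 peaks nearest a start and 28 nearest the other end. The peaks at starts pile up just upstream of 0 with a median of -49.0 bp, and those at other ends are spread over the whole range.

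Among gene-end peaks of both lists, 94.1% (32 of 34) were nearest a start, and the dDAVP-only sites differed from them by -2.16 percentage points (95% interval -7.57 to 11.3). Fisher's exact test, two-sided and adjusted by Benjamini-Hochberg over the 4 tests made of this kind, gave p = 1. The centre lay inside a gene at 195 sites (45.7%, Wilson interval 41.0 to 50.4) and at 13 of the 49 peaks of both lists (26.5%, 16.2 to 40.3). That difference of 19.1 points (4.63 to 30.5) had p = 0.0143 in Fisher's exact test and 0.0571 after adjustment, which did not pass 0.05. At dDAVP-only peaks away from gene ends, the centre was inside a gene in 50.3%. These tests take peaks as units and describe the lists, not the spread between cultures, and whether the samples came from separate cultures is not stated beyond an experiment number. Whether a site is exonic or intronic was not determined, since the gene table used holds gene ends alone.

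At 65 sites (15.2%), ends of more than 1 gene were within 1000 bp. Strand was known for all genes at 43 of them, and at 36 or more the peak lay between or beside a pair of starts. For a short gene with both ends in reach only the farther end was counted, so 36 is a lower limit. Such shared sites had a median score of 213 against 189 at the 362 sites with a single gene. The peak at the starts of Cutc and Cox15, a heme A synthase gene, had a score of 813. The peak at the starts of Miip and Fv1 had a score of 720, and Hmgxb3, Acadsb with Ikzf5, Qtrt2 with Ccdc191, Spry4 with Arhgap26 (831) and H2bc9 with H3c7 (748) were the others among the 8 best besides Tomm6. In 6 genes there was more than 1 site: Ilf2 (715 and 340), Ccng2 (448 and 105), Becn1 (318 and 109), 9030025P20Rik (220 and 107), Dhrs7 (266 and 43) and Gars (96 and 79). In Ilf2, a subunit of a double-stranded RNA binding complex, the peaks lay 249.5 bp upstream and 383.5 bp downstream of the start. No gene had both a dDAVP-only site and a peak of both lists at its ends. Only 487 of 21631 protein-coding genes (2.25%) were at a dDAVP-only site, and gene-end peaks of both lists numbered 49. Little overlap could therefore occur, and a separation of these kinds of site was not tested.

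None of the sites was next to a vehicle peak. The nearest was at Bmf, a pro-apoptotic BH3-only gene, 6847 bp from a vehicle peak, with a score of 639. Those at Cyp39a1 (score 88) and Ilf2 (340) were 7580 and 8997 bp away, and 4 in all were within 10000 bp. At the distance limit, the last sites taken in were at Vps36 (975.5 bp, score 318), Suco (982 bp, 295) and Prss57 (983.5 bp, 170). The first left out were at Frrs1 (1009.5 bp, score 477), Aebp1 (1013 bp, 169) and 4930523C07Rik (1016.5 bp, 411). Absence from the vehicle list means that no peak was listed there and does not measure occupancy. The peak names of the vehicle list carry replicate 1 numbers up to 329, of which 209 are present (63.5%), so at least 120 replicate 1 peaks after vehicle have positions not known here. In the dDAVP list, 2399 distinct numbers of up to 2707 are present (88.6%). The unequal loss was not tested for its part in the choice of sites.

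By chromosome, 42 sites were on chromosome 11, the most of any, but that chromosome also holds many genes (1609). Its rate was 26.1 sites per 1000 protein-coding genes, below those of chromosomes 19, 10, 17 (27.4) and 3 (26.4). All chromosomes together had 427 sites and 21631 protein-coding genes. Per 1000 protein-coding genes, chromosome 19 had 42.6 sites and chromosome 10 had 35.0. Chromosome 14 had 5.88 and chromosome X 5.18.

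For 152 of the 427 sites, the centre lay inside a promoter window of the RefSeq table, from 250 bases before to 50 bases after an annotated start, and these windows were searched for motifs on both strands. The C/EBP site TTGCNNAA, which includes the palindrome, was in 62 of the 152 windows (40.8%, Wilson interval 33.3 to 48.7), beside 10.3% of the promoters of all 17274 genes in the table. The palindrome TTGCGCAA alone was in 8 (5.26%), beside 0.214% of all promoters. The composite TGATGNAA was in 14 (9.21%), beside 3.5%. The chimera TGACGNAA, which overlaps the letters TGACG of the CRE, was in 25 (16.4%), beside 1.98%. At least 1 of these elements was in 93 windows (61.2%, 53.3 to 68.6), beside 15.1% of all promoters. Some elements not of the C/EBP type were also more frequent than in all promoters. The NRF1 core GCATGCGC was in 9.21% beside 3.64%, near the values of the composite. The E-box CACGTG was in 15.1% beside 7.99%, the ETS element CCGGAAG in 21.1% beside 12.0%, and the GC box GGGCGG in 60.5% beside 46.9%. The AP-1 element TGANTCA (3.95% beside 7.14%) and the TATA box TATAAA (10.5% beside 13.4%) were less frequent. All these are descriptions of letters in windows, without a test.

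In the 24 windows at gene-end peaks of both lists, at least 1 of the elements was in 91.7%, above the 61.2% of the dDAVP-only sites. The C/EBP site was in 75.0%, the palindrome in 37.5% (9 windows), the composite in 16.7% and the chimera in 8.33%. These differences were not tested, and the intervals for 24 windows are wide. The full CRE, TGACGTCA, was in 1.97% of the windows of the dDAVP-only sites (3 windows), beside 2.37% of all promoters, in none of the 24, and in 26.9% of the 546 windows at CREB1 vehicle peaks. The shorter CRE letters TGACG, which the chimera also holds, were in 46.7% of the windows of the dDAVP-only sites (71 windows). They were in 24.1% of all promoters, 29.2% of the 24 windows and 90.3% of the windows at CREB1 vehicle peaks. In those CREB1 windows, the C/EBP site was in 7.51% and the chimera in 14.5%. The CCAAT box, read by NF-Y and not by C/EBP proteins in spite of their name, was in 53.3% of the windows of the dDAVP-only sites, 70.8% of those at peaks of both lists, 47.3% at CREB1 vehicle peaks and 39.4% of all promoters.

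**Figure D3:**
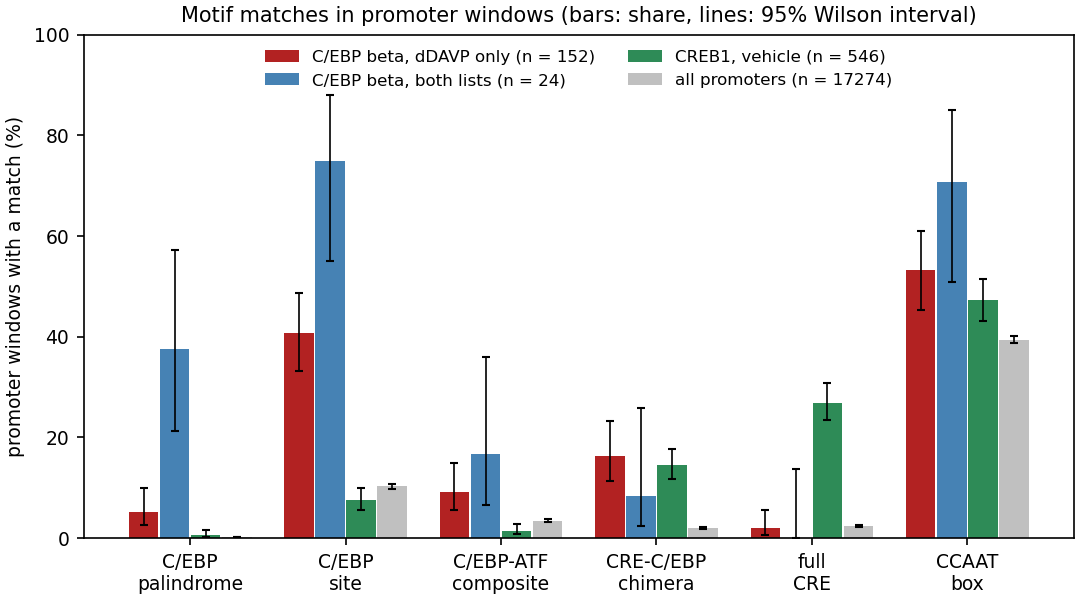
Share of promoter windows with at least 1 match to each motif (vertical axis, %), for windows at C/EBP beta dDAVP-only peaks (n = 152), C/EBP beta peaks of both lists (n = 24), CREB1 vehicle peaks (n = 546) and all promoters (n = 17274), with 95% Wilson intervals as lines. The dDAVP-only windows stand at 40.8% for the C/EBP site and 1.97% for the full CRE, and the CREB1 windows at 7.51% and 26.9%.

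The position of the elements within the window was described as well, without a test. The C/EBP site had 3.84 matches per kb within 50 bp of the peak centre and 0.331 per kb in the rest of the 152 windows. All 8 palindromes were in the inner part. The chimera had 1.61 per kb near the centre and 0.0993 beyond, and the composite 0.838 and 0.0993. In contrast, CCAAT boxes had 3.13 per kb near the centre and 3.1 beyond. The AP-1 element had 0.139 and 0.132, from only 2 and 4 matches. Other elements were less even. The CRE letters TGACG, chimeras included, had 3.34 and 1.57, the ETS element 1.12 and 0.692, and the GC box 4.46 and 3.71. Densities were lower near the centre for the E-box (0.418 and 0.623), the NRF1 core (0.279 and 0.463) and the TATA box (0.0697 and 0.525). So the C/EBP-type elements were gathered at the peak centres, the CCAAT box had nearly the same density in both parts, and the other elements varied.

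**Figure D4:**
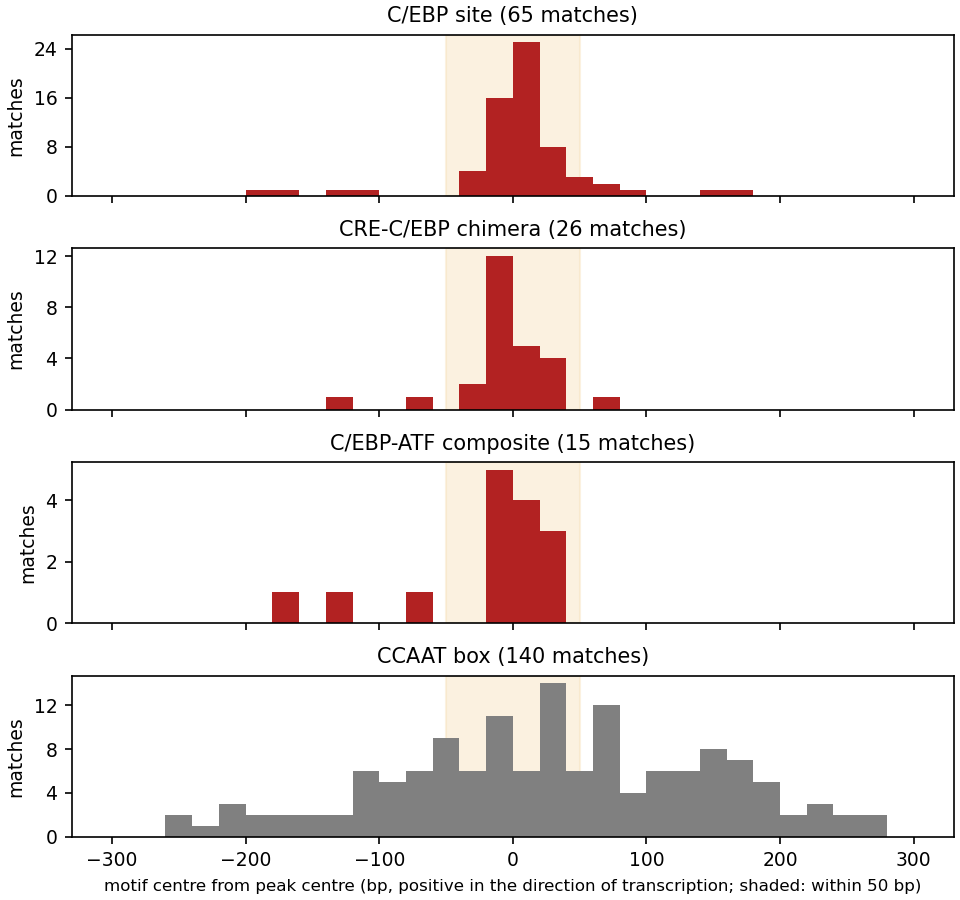
Number of motif matches per 20 bp (vertical axes) by distance of the motif centre from the peak centre (horizontal axis, bp, positive in the direction of transcription), in the 152 promoter windows of dDAVP-only peaks, with the inner 50 bp on each side shaded. Matches of the C/EBP site (65), chimera (26) and composite (15) gather in the shaded part, and the 140 CCAAT boxes are spread over the windows.

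The letters at the centre of the elements were often CG. When all words of 8 letters found in at least 8 of the 152 windows (333 words) were ranked by their share relative to all promoters, the first 7 all held CGCAA on a strand. They were led by TTACGCAA, in 13 windows (8.55%, beside 0.197% of all promoters, a ratio of 43.5). TTGCGAAA followed with a ratio of 29.3 and TTGCGCAA with 24.6. TGTCGCAA, which none of the searched elements covers, was in 10 windows (6.58%) with a ratio of 23.2. TGACGCAA, the most frequent chimera, was in 18 windows (11.8%, beside 0.672%). Some of these windows share longer stretches: H2ac19 and H2ac18 around TGTCGCAA, and Kifc5b and Kifc1 around TGACGCAA. Such copies were counted separately. The core CGCAA, taken up as a motif only after these words were seen, was in 57.2% of the windows, beside 79.2% of the 24 windows at gene-end peaks of both lists, 37.7% at CREB1 vehicle peaks and 21.0% of all promoters. It had 6.33 matches per kb within 50 bp of the centre and 1.18 beyond. Of the 59 windows without any of the longer elements, 28 held the core, as Atp6v1f did, and 31 held none of the 4.

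Scores were set beside the motifs as a description, with no test. The 62 sites with TTGCNNAA in the window had a median score of 289.5 and the 90 without it 196.5. A split of this direction was not particular to the C/EBP site. With and without the core CGCAA the medians were 262 and 192, with and without a TATA box (TATAAA, 16 windows) 323.5 and 214.5, and with and without the NRF1 core (GCATGCGC, 14 windows) 265 and 214.5. Split at the median score of 220 over the 152, the share with the C/EBP site was 51.4% in the upper part (interval 40.2 to 62.4) and 30.8% in the lower (21.6 to 41.7), and these intervals overlap. The chimera was in 16.2% and 16.7% of the same windows and the composite in 8.11% and 10.3%.

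Genes of the ATF4 stress pathway, of amino acid synthesis and of tRNA charging had larger shares at the sites than all protein-coding genes together, as a description. In all, 487 of 21631 protein-coding genes (2.25%) had an end at a site. Of 34 regulators and targets of the ATF4 and CHOP stress pathway, 9 did (26.5%, Wilson interval 14.6 to 43.1). Of 33 genes of amino acid synthesis and one-carbon metabolism, 6 did (18.2%, 8.61 to 34.4). Of 40 aminoacyl-tRNA synthetases, 7 did (17.5%, 8.75 to 31.9), and of 28 amino acid transporters 1 did (3.57%). With the 4 lists joined, 22 of 134 genes were at a site (16.4%, 11.1 to 23.6). Their scores were not high, with a median of 151.5 beside 191 for all 427 sites. Some genes of these kinds were also at the 49 gene-end peaks of both C/EBP beta lists, so such genes were not confined to the dDAVP-only sites. There, 3 of the 34 stress genes, 2 of the 40 synthetases and 1 of the 33 amino acid synthesis genes had an end. None of the transporters did. The share of all protein-coding genes at those 49 peaks was not computed, so these counts have no base to be read against. The gene lists were chosen with results of these data known, so their counts are given without a test.

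Among the ATF4 and CHOP genes, Ppp1r15b, a subunit of the phosphatase that reverses the stress phosphorylation of eIF2 alpha, had a score of 460. Atf3 (chr1:191183103-191183625), a stress-induced repressor of the ATF family, had 434, with the centre 30.5 bp upstream of the start. Trib3 (chr2:152343922-152344215), a pseudokinase induced by ATF4 and CHOP, had 423, with the centre 8 bp upstream. Atf4 itself had a site with a score of 141, 958 bp from its start. The tRNA exporter Xpot (153), the endoplasmic reticulum oxidase Ero1a (150), the lipoprotein receptor Vldlr (132) and the translation repressor Eif4ebp1 (63) also had a site. Nars, the asparaginyl-tRNA synthetase, had 201 and is counted among both the stress genes and the synthetases. The other synthetases, which charge tRNAs with their amino acids, were Mars1 (172), Wars (170), Yars (160), Qars (131), Cars (96) and Gars (96). Their scores lay in the lower part of the range for the 427 sites or near its middle.

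Among genes of amino acid synthesis, Pycr1 with 1196 stood far above the others. Mthfd1l, a mitochondrial folate enzyme, had 431, Shmt2, the mitochondrial serine hydroxymethyltransferase, 109, Aldh18a1 91 and Psat1 61. Aldh18a1 (chr19:40588381-40588544) catalyses the first steps of proline synthesis, and the centre of its peak lay 1 bp from the start. Slc1a4, a transporter of neutral amino acids, was the single transporter with a site, and its score was 484, with the centre 4.5 bp from the start.

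The composite of C/EBP and ATF was frequent at these genes. It was in 7 of the 10 windows of the 4 lists (70.0%) and in 7 of the other 142 windows (4.93%), a comparison made after the values were seen and not tested. The windows without it were those of Qars, Aldh18a1 and Psat1. The stretches of 30 bases below show the match in the 6 genes besides Pycr1, in capitals, on the strand of the gene, in GRCm38.p6. They are Slc1a4 (chr11:20332699-20332728, minus strand), Atf3 (chr1:191183425-191183454, minus), Trib3 (chr2:152344028-152344057, minus), Yars (chr4:129189895-129189924, plus), Vldlr (chr19:27216809-27216838, plus) and Gars (chr6:55037960-55037989, plus).
Slc1a4: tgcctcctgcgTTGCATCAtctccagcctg
Atf3: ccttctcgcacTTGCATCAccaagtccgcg
Trib3: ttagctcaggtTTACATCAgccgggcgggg
Yars: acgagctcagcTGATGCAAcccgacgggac
Vldlr: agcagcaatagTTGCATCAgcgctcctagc
Gars: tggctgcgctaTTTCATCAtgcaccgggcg

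The match lay 5.0 bp from the peak centre in Slc1a4, 6.0 bp in Yars and 2.0 bp in Gars. In Gars this was the peak with a score of 79, and the peak with a score of 96 lay 926.5 bp from the start. The match lay 25.5 bp away in Trib3, 29.5 bp in Vldlr and 76.0 bp in Atf3. In Slc1a4, Atf3 and Vldlr the letters were TTGCATCA, the reverse complement of the TGATGCAA seen in Pycr1 and Yars. In Trib3 they were TTACATCA and in Gars TTTCATCA. The Atf3 window also held a chimera, as TTACGTCA, nearer to the start and within the wide peak.

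Several other groups of genes had shares above 2.25% with wide intervals. Of 41 AP-1 and immediate early genes, 5 had a site (12.2%, Wilson interval 5.32 to 25.5): Atf3, Ier2 (422), Rgs2 (179), Fosl1 (145) and Maff (113). Of 24 clock genes, 3 did (12.5%, 4.34 to 31.0): Cry2 (414), Ciart (233) and Per1 (113). The Per1 peak (chr11:69094722-69094950) lay 272.5 bp upstream of the start and overlapped a CREB1 vehicle peak. Of 35 acute phase and inflammatory genes, 4 did (11.4%, 4.54 to 26.0): Ptgs2, the complement gene C3 (265), the iron-siderophore carrier Lcn2 (189) and the interleukin 6 receptor gene Il6ra (187). All 4 of those had their centre in a promoter window, and 3 of the 4 windows held a C/EBP site. Cebpb had a site near its other end (chr2:167690070-167690276, score 101), 259.5 bp inside the gene, and with Trib3 it made 2 of 11 genes of the C/EBP family and tribbles. Another 2 of those 11 were at gene-end peaks of both C/EBP beta lists, for which the share of all genes was not computed.

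Among genes of translation and of organelles, the Wilson intervals of most lists overlap, and no test compared the lists. Of 45 translation factors, 5 had a site (11.1%, 4.84 to 23.5): the release factor Etf1 (510), the helicase Eif4a1 (295), Eif1 (199), Eif2s2 (170) and Eif6 (148). Of 44 lysosome and autophagy genes, 4 did (9.09%, 3.59 to 21.2): Becn1, Atg16l1 (306), Optn (169) and Atg10 (105). The respiratory chain list had 5 of 111 (4.5%, 1.94 to 10.1), with a median score of 587: Taco1, Cox15, Ndufs7 (587), Cox19 (485) and Sdhd (209). The peak at Sdhd, a membrane subunit of succinate dehydrogenase, also lay 46.0 bp from the start of Timm8b, a chaperone of mitochondrial import. Of 70 tRNA modification enzymes, 4 did (5.71%, 2.24 to 13.8): Qtrt2, the methyltransferases Nsun4 (284) and Ftsj1 (209), and Dus3l (252). Of 85 cytosolic ribosomal protein genes 2 had a site (2.35%, 0.648 to 8.18), and of 78 mitochondrial ribosomal protein genes 1 did (1.28%, 0.227 to 6.91). No site was at an end of 41 proteasome genes (Wilson interval 0 to 8.57) or 29 glycolysis genes (0 to 11.7). Both of those intervals include the 2.25% of all protein-coding genes. None was at an end of 1465 olfactory and vomeronasal receptor genes (0 to 0.262).

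Genes that carry out collecting duct transport were near the share of all genes, with 1 of 31 (3.23%, Wilson interval 0.572 to 16.2). That gene was Aqp2. Its site (chr15:99584846-99585098, score 227) lay 426.5 bp past the other end of the gene, not at the promoter. Of 27 transcription factors of the duct and of epithelia, 1 had a site, Grhl2 (chr15:37232428-37232716, score 242), a grainyhead factor of epithelial junctions, 249.5 bp from an end of the gene. Solute carriers, with 10 of 346 (2.89%), and Zfp zinc finger genes, with 8 of 397 (2.02%), were also near it.

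**Figure D5:**
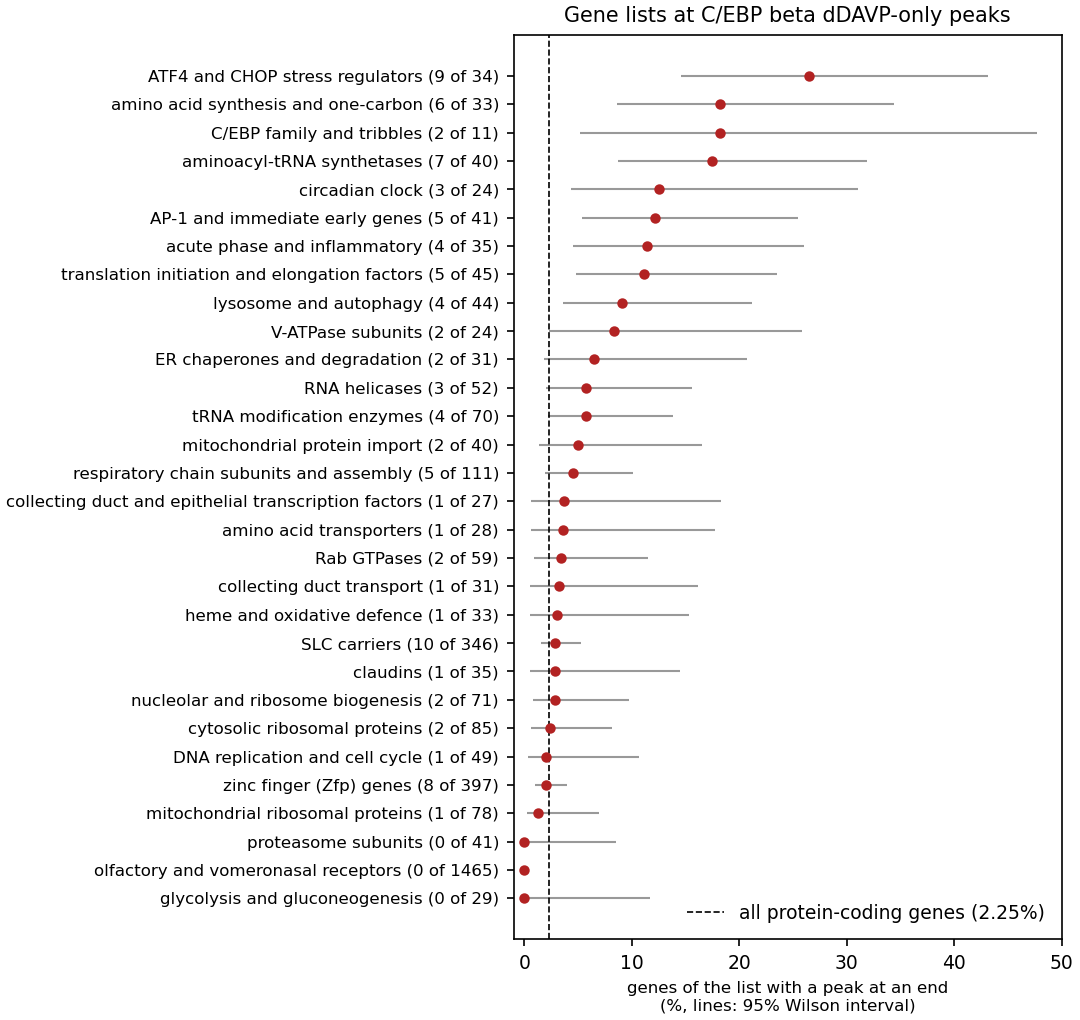
Share of genes in each of 30 gene lists with an end within 1000 bp of a C/EBP beta dDAVP-only peak centre (horizontal axis, %), with 95% Wilson intervals as lines, counts in brackets and the 2.25% of all protein-coding genes as a dashed line. The ATF4 and CHOP list is highest at 26.5%, the ribosomal protein lists lie near the dashed line, and 3 lists are at 0.

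CREB1 peaks overlapped a minority of the sites. Of the 427, 33 (7.73%, Wilson interval 5.56 to 10.7) overlapped a CREB1 peak after vehicle and 15 (3.51%, 2.14 to 5.71) a CREB1 peak after dDAVP. Of all 2401 C/EBP beta dDAVP peaks, 2.04% and 0.833% did so, and of the dDAVP-only peaks away from gene ends 0.623% and 0.227%. Gene-end peaks of both lists had 4 of 49 (8.16%) and 1 of 49 (2.04%). The differences from those, -0.435 points (-11.7 to 5.31) and 1.47 points (-7.29 to 4.24), had adjusted p = 1 in Fisher's exact test. No difference was detectable within these limits, and the first difference changed sign when other distances were used. Both CREB1 lists share the cell line and, in part, the inputs with the C/EBP beta lists.

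Where peaks of both factors overlapped, the median distance between centres was 39.0 bp for CREB1 peaks after vehicle (range 2.0 to 199.5) and 33.5 bp for those after dDAVP. These pairs were chosen by overlap, so the peak widths limited the distance and its size is in part built into the choice. The overlapping CREB1 peaks after vehicle had a median width of 290 bp, the same as all CREB1 vehicle peaks. The highest scores among these sites were at Tomm6 (1396), Csnk1g2 (1096), Gtf2f1 (902), Qtrt2 (883) and Fdxr (872). At Tomm6 the centres of both factors were 2.0 bp apart after vehicle and 8.0 bp after dDAVP, and at Qtrt2 6.0 and 8.0 bp. Fdxr had a CREB1 peak after vehicle alone, as did Uvssa (448) and Ttc9c (330), while Ssu72 (535), Abcf2 (485), Rps6kb2 (372) and Rpl41 (323) had both. CREB1 overlap did not go with a high score, as the median was 180 at the 33 sites and 191.5 at the other 394. These sites lay nearer to gene ends, with a median distance of 77.0 bp against 245.5 bp.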

How the data were processed

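ChIP-seq of C/EBP beta and CREB1 in 22 samples was deposited as 4 peak lists, one for each antibody and treatment. The submitters' processing notes name mm10 as the build and, as tools without versions, MACS2, BWA, bedtools and SAMtools. Names in the deposited C/EBP beta lists point to replicate 1 and to calling settings (bw 300, dup 1, q 0.01). How the replicates were joined was not stated in the labels or names, and is not given in the sources used here. Both C/EBP beta lists hold the authors' deposited score per peak, without a stated scale, and the CREB1 lists hold positions alone. No read counts were analysed here, so the depth is unknown and no test over replicates was made.

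The members and the gene and motif lists were chosen with earlier results of these data known. Groups came from sample titles. Peaks overlapping by at least 1 bp counted as shared. Distances ran from the peak centre to an end of 21631 protein-coding genes on 20 chromosomes (RefSeq, GRCm38.p6), which give no exons. Strand came from the RefSeq promoter table, whose 21045 windows of 300 bases covered 17274 genes; for other genes the strand was not known. Motifs were searched on both strands. Shares have 95% Wilson intervals, which cover counting alone. The 4 tests were Fisher's exact tests, two-sided, with Benjamini-Hochberg adjustment and a threshold of 0.05 (SciPy 1.17.1, pandas 2.3.3, statsmodels 0.14.6), and the scripts were tested on simulated data. All 640 entries of the gene lists given by symbol were found, and the rule for cytosolic ribosomal proteins was narrowed after a first run had also taken kinases.

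Genes were named by a rule: the 15 highest scores, the 5 lowest, the 5 widest and 5 narrowest, the 3 on each side of the distance limit, the 3 nearest a vehicle peak, up to 10 at CREB1 peaks, up to 6 genes with several sites, up to 8 sites with several genes, up to 8 genes per gene list, the best promoters per motif, and 8 genes of prior interest (Aqp2, Cebpb, Per1, Atf3, Trib3, Aldh18a1, Ptgs2, Grhl2). Some genes that this rule takes in are not reported here. Alternatives covered the gene-end distance, the overlap, the upper 50% of scores, peak edges in place of centres, all genes of the table, a least width of 100 bp, and a CREB1 peak within 500 bp.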

Additional observations from a re-analysis of the deposited data

How the results depend on the processing

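Of 39 alternative values for the results above, 32 kept their direction and their side of the test's threshold or, without a test, stayed within 1.5 times (counts) or within their 95% interval (the motif share and the median score). Sizes still moved among them: the difference in the share inside a gene went from 19.1 points to 11.4 with gene ends within 500 bp and 11.8 within 2000 bp, and that in the share nearest a start from -2.16 to -6.53 within 500 bp. With the upper 50% of dDAVP scores alone, the count of sites fell from 427 to 212, the genes of the 30 lists at a site from 90 to 44, and the median score rose from 191 to 325.5, as that construction removes low scores. The count of sites was 302 with gene ends within 500 bp and 562 within 2000 bp. Differences from the gene-end peaks of both lists changed sign, with no adjusted p under 0.05: the share overlapping a CREB1 vehicle peak was 10.3% (1.17 points higher) with gene ends within 500 bp, 6.58% (0.613 points higher) within 2000 bp and 9.84% (1.67 points higher) when a CREB1 peak within 500 bp counted, and the share nearest a start was 87.8% (4.47 points higher) within 2000 bp. The cause of these changes was not tested. For the share inside a gene, adjusted p was 0.0571 to 0.463 over the settings. A width of at least 100 bp left 426 sites. The C/EBP site was in 39.5% of the promoter windows when only letters inside the peak were searched, an alternative chosen after seeing the data. No paired analysis was possible because each list joins the samples of a group, and leaving out 1 replicate could not be run for the same reason. Depth and immunoprecipitation yield, on which peak calls rest, are unknown here.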
